A study of Mus musculus with 9 samples.

Results

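Ornithine decarboxylase (Odc1), S-adenosylmethionine decarboxylase (Amd1), spermidine synthase (Srm), ornithine decarboxylase antizyme 1 (Oaz1) and spermidine/spermine N1-acetyltransferase 1 (Sat1) make, restrain and break down the polyamines. Every probe set annotated to these 5 genes was taken from the deposited table of gastrocnemius arrays, which gave 5 of the 12422 probe sets that are not controls, for 4 of the genes among 8949 gene symbols. Odc1 (160084_at, Entrez gene 18263), Srm (92540_f_at, Entrez gene 20810) and Sat1 (96657_at, Entrez gene 20229) have 1 probe set each. The 2 Oaz1 probe sets (101013_at and 161360_at, Entrez gene 18245) are also annotated to its transcribed pseudogene Oaz1-ps, so their signal may come from either. Amd1 was not analysed here. All 5 probe sets passed the filter on low signal, which kept 7453.

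Putrescine, spermidine and spermine are small positively charged molecules that bind RNA and are needed for growth and translation. Odc1 makes putrescine from ornithine, and Srm adds an aminopropyl group to it to give spermidine, with the group supplied by the product of Amd1. The antizyme encoded by Oaz1 binds Odc1 and sends it to the proteasome, and its own translation needs a frameshift that polyamines favour. Sat1 acetylates spermidine and spermine, which marks them for oxidation or export. In skeletal muscle the pathway is known for its response to androgens and to changes of muscle mass.

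The gastrocnemius, a calf muscle, was taken from 9 mice of 6 genotypes, and RNA of each mouse was hybridised to its own Affymetrix U74Av2 array. The mdx mutation removes full-length dystrophin, which anchors the muscle fibre's cytoskeleton to its membrane, hDMD is the full-length human dystrophin gene carried as a transgene, and utrn-/- removes utrophin, a related protein. The genotypes were hDMD mdx utrn-/- (1 mouse, 9 weeks old), mdx utrn-/- (1 mouse, 5 weeks), hDMD mdx (2 mice, 24 and 10 weeks), mdx (2 mice, 15 and 13 weeks), hDMD (1 mouse, 11 weeks) and wild-type (2 mice, both 7 weeks). All mice were male except wild-type 1. The labels give the strain only for wild-type, a mixed C57Bl/DBA2/129OLA-Ev background, and say neither how many hDMD founder lines there were nor whether mice were littermates, so strain cannot be told apart from genotype. Age overlapped between some genotypes, and each comparison was also fitted with age as a covariate. Where the fit has 1 mean per genotype, its age slope comes only from the hDMD mdx pair and, much less, the mdx pair.

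Levels are quantile normalised intensities on the log2(intensity + 16) scale, which has its floor at 4. Differences on it understate the change of dim genes. The arrays of hDMD mdx 1, mdx 2 and wild-type 1 were bright, with spike-in controls 6.19 times those of the 6 dim arrays, so differences of Odc1, Srm and Sat1 within each kind are given beside the pooled ones. Dmd signal was 4.44 to 4.46 in the 3 arrays without dystrophin and 4 to 4.95 in the 6 with it. Utrn signal on its 2 probe sets was 4.18 to 5.64 without utrophin and 4.15 to 6.16 with it, so the genotype labels cannot be checked on them. Muscle fibre markers were well above the floor in every array, with the sum of 8 of them between 18300 and 20200 without dystrophin and between 18100 and 20900 with it. In whole muscle, fewer cells of a type and less RNA per cell cannot be told apart.

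The gene set was chosen on the differences between genotypes measured in these same arrays. Their levels and differences are therefore a description, with standard errors and no p-values, and the calls of the fit across all probe sets are given as counts with nothing read from them.

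Promoter sequences from RefSeq, on mouse build GRCm38.p6, matched 3 of the 4 genes. They are shown because Odc1 and Sat1, the enzymes that open synthesis and open breakdown, had opposite patterns over the arrays while the first Oaz1 probe set hardly varied. Each covers 250 bases before to 50 after an annotated start, 5′ to 3′ on the gene's strand, with matches in capitals. They lie at chr12:17544623-17544922 (plus strand) for Odc1, chrX:155216400-155216699 (minus strand) for Sat1 and chr10:80826406-80826705 (plus strand) for Oaz1.
Odc1: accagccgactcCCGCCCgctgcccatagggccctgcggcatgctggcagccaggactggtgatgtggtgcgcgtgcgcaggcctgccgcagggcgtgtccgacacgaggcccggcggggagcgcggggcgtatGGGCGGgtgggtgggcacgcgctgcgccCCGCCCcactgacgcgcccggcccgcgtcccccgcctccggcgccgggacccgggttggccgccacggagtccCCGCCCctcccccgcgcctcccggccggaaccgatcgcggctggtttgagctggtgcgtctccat
Sat1: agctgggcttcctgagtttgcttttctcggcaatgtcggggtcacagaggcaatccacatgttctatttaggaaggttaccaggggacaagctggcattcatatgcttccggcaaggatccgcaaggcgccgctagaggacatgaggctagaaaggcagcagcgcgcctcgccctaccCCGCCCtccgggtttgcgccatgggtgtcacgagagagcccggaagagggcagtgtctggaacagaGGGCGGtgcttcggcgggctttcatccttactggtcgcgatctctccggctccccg
Oaz1: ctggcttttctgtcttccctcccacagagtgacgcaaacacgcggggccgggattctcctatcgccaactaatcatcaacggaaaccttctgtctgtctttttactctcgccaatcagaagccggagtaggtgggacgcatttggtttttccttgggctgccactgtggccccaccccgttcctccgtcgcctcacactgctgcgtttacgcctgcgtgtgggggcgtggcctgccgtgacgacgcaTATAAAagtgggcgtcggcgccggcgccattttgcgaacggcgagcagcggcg
Capitals mark GC boxes (GGGCGG, or CCGCCC on the other strand) and the TATA letters (TATAAA), searched on both strands, and no match overlapped another. The Odc1 window held 4 GC boxes, the Sat1 window 2 and the Oaz1 window 0. The TATA letters occurred once in the Oaz1 window alone of the 3, beginning at position -3 from the annotated start. Whether they act as a TATA box was not tested. The E-box bound by Myc and Max (CACGTG) was not in these windows. Sequence outside them, such as introns, was not searched, so E-boxes elsewhere in these genes would be missed. Among all 32851 promoters of the same length, 35.7% hold a GC box, 13.6% the TATA letters and 7.15% the E-box. The matches describe the sequence and were not tied to the levels.

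Odc1, the enzyme that commits ornithine to polyamine synthesis, was high in every mouse that carried the human dystrophin gene. Its level was 7.30 in hDMD mdx utrn-/-, 6.83 and 7.45 in hDMD mdx 1 and 2, and 7.63 in hDMD. It was 5.62 in mdx utrn-/-, 5.88 and 5.74 in mdx 1 and 2, and 5.39 and 6.63 in wild-type 1 and 2. All 4 carriers stood above all 5 non-carriers, and the nearest non-carrier was the male wild-type mouse, 0.20 below hDMD mdx 1.

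Carriers averaged 7.30 ± 0.35 (SD, n = 4) and non-carriers 5.85 ± 0.47 (SD, n = 5), a difference of 1.45. This grouping was chosen after the levels had been seen. Among all kept probe sets, the carriers stood wholly above the non-carriers in 1.09% and wholly below in 1.09%, and Odc1 had the seventh largest difference of those 162. Within the bright arrays Odc1 was at 6.83 in the carrier, against 5.74 and 5.39 in mdx 2 and wild-type 1. Within the dim arrays the 3 carriers lay between 7.30 and 7.63 and the 3 non-carriers between 5.62 and 6.63.

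Sat1, the acetyltransferase that opens polyamine breakdown, ran the other way. Its level was 4.77 in hDMD mdx utrn-/-, 6.48 and 4 in hDMD mdx 1 and 2, and 5.18 in hDMD. It was 6.95 in mdx utrn-/-, 6.94 and 7.33 in mdx 1 and 2, and 6.04 and 6.68 in wild-type 1 and 2. The 3 mice without dystrophin had the highest levels, and hDMD mdx 2 lay at the floor, where its deposited intensity was below 0. Deposited intensities of the other dim carriers were also low. They were 1.55 in hDMD mdx utrn-/- and 5.2 in hDMD, on arrays with medians of 1.47 and 2.85.

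Carriers of the human gene averaged 5.11 ± 1.04 (SD, n = 4) and non-carriers 6.79 ± 0.48 (SD, n = 5), and the groups overlapped through hDMD mdx 1, which stood above wild-type 1. The 3 dim carriers lay between 4 and 5.18, and the bright carrier at 6.48. The 2 hDMD mdx mice, which differed in age (24 and 10 weeks) and in array brightness, were 2.48 apart, and the part of either was not tested.

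**Figure D1:**
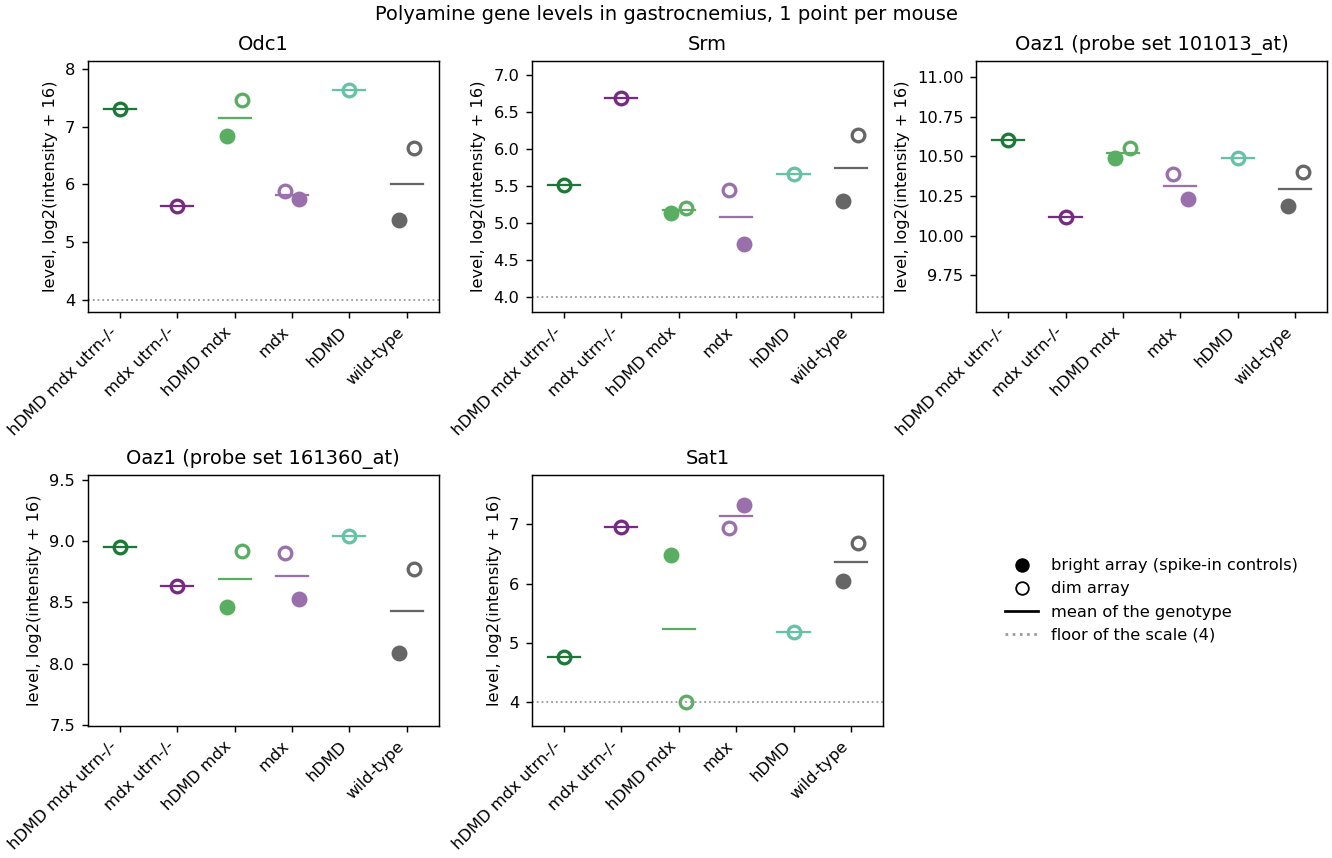
Level of each polyamine probe set in each mouse, on the log2(intensity + 16) scale, by genotype. Points are mice (filled for bright arrays, open for dim arrays) and bars are genotype means. Odc1 lies between 6.83 and 7.63 in the 4 carriers of hDMD and between 5.39 and 6.63 in the others, and Sat1 is highest, at 6.94 to 7.33, in mdx and mdx utrn-/-.

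**Figure D2:**
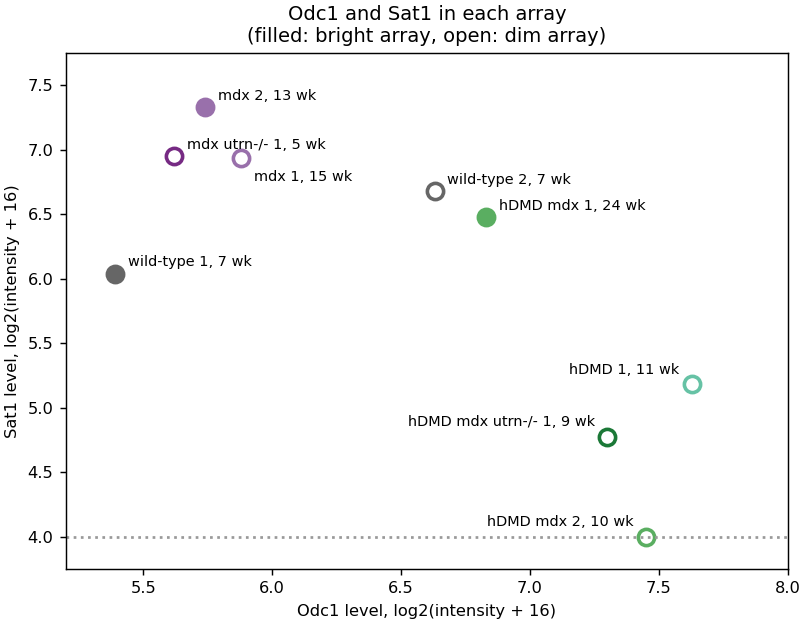
Odc1 level (x) against Sat1 level (y) in each mouse, both on the log2(intensity + 16) scale, with genotype and age in weeks. The 3 dim carriers of hDMD lie at the lower right, with Odc1 of at least 7.30 and Sat1 of at most 5.18, the 3 mice without dystrophin at the upper left, with hDMD mdx 1 and wild-type 2 between them and wild-type 1 at the lowest Odc1, 5.39.

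Srm, the enzyme that makes spermidine, gave a dim signal without a shared order. It was at 5.52 in hDMD mdx utrn-/-, 5.14 and 5.21 in hDMD mdx 1 and 2, and 5.67 in hDMD. It was at 6.69 in mdx utrn-/-, 5.45 and 4.72 in mdx 1 and 2, and 5.30 and 6.19 in wild-type 1 and 2. The mouse without both proteins had the highest level and mdx 2 the lowest, so the dystrophin-lacking arrays held both ends of the range. The suffix f in the name of this probe set is Affymetrix's mark for probes that match a family of similar sequences.

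Oaz1, the antizyme that lowers Odc1 protein, had high and steady signals. Its first probe set (101013_at) was at 10.60 in hDMD mdx utrn-/-, 10.49 and 10.55 in hDMD mdx 1 and 2, and 10.49 in hDMD. It was at 10.12 in mdx utrn-/-, 10.39 and 10.23 in mdx 1 and 2, and 10.19 and 10.40 in wild-type 1 and 2. Here too all 4 carriers stood above all 5 non-carriers, by a mean of 0.26 only (10.53 ± 0.06 and 10.27 ± 0.13, SD). The same held for 1.09% of all kept probe sets, and the lowest carrier was only 0.08 above the highest non-carrier. By size its difference ranked 155 among the 162 probe sets without overlap in either direction.

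The SD of this Oaz1 probe set over the 9 arrays, 0.17, was among the lowest of the kept probe sets, with 1.76% at or below it. That of Odc1 was 0.86 and that of Sat1 1.14, with 94.1% and 98.6% of the kept probe sets at or below them. The median was 0.42. The second Oaz1 probe set (161360_at) lay between 8.46 and 9.04 in carriers of the human gene and between 8.09 and 8.90 in non-carriers. Its mean difference was also 0.26 (8.84 ± 0.26 and 8.58 ± 0.31, SD), but the groups overlapped, with hDMD mdx 1 the lowest carrier.

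The order of genotypes by mean level was, from the highest, hDMD, hDMD mdx utrn-/-, hDMD mdx, wild-type, mdx and mdx utrn-/- for Odc1. Neighbours within the 3 carrier genotypes, and within the 3 non-carrier genotypes, were 0.16 to 0.34 and 0.19 to 0.20 apart. These steps were smaller than the within-genotype SD of 0.57, while the step of 1.13 between hDMD mdx and wild-type was larger. For Sat1 the order was mdx, mdx utrn-/-, wild-type, hDMD mdx, hDMD and hDMD mdx utrn-/-. The largest step there, 1.12 between wild-type and hDMD mdx, was close to the within-genotype SD of 1.06, and every other step was smaller than it. Both SDs are of single mice, not errors of a difference of means, so setting steps beside them is no test. They come from pairs of mice that differed in array brightness and in sex or age.

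The first comparison of the design set mice without full-length dystrophin (mdx and mdx utrn-/-, n = 3) against mice with it from either gene (n = 6). Odc1 was at 5.75 ± 0.13 (SD) without dystrophin and 6.87 ± 0.82 with it, a difference of -1.12 ± 0.42 (SE). The bright arrays alone gave -0.36 and the dim ones -1.50. The groups overlapped because wild-type 1 had the lowest Odc1 of all 9 mice. That mouse was the only female, and its array was the bright one of the wild-type pair, so sex and brightness cannot be told apart there. Transcription of Odc1 responds to androgens in several mouse tissues, and with 1 female the part of sex was not tested. Without wild-type 1 the difference was -1.42.

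Sat1 was at 7.07 ± 0.22 without dystrophin and 5.53 ± 1.05 with it, a difference of 1.54 ± 0.52, or 2.92-fold on this scale. The groups did not overlap, and the bright arrays gave 1.06 and the dim ones 1.78. Of all kept probe sets, 1.52% were higher without overlap in this comparison, and 2.94% did not overlap in either direction. Srm differed by 0.11 ± 0.39, with its sign turning between the bright arrays (-0.50) and the dim ones (0.42), and by -0.42 without mdx utrn-/-. The Oaz1 probe sets differed by -0.20 ± 0.19 and -0.02 ± 0.25. In limma 0 of the 5 probe sets were called, against 0.121% of all 7453 (9 probe sets), and 416 of the 7453 had an unadjusted p under 0.05.

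With carriage of the human gene as a covariate, the difference between mice without and with dystrophin was -0.26 ± 0.39 for Odc1, and 0.71 ± 0.58 for Sat1. Both values were more than 1.5 times smaller than without the covariate.

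The second comparison asked what changed with loss of mouse dystrophin alone, in mdx against wild-type (n = 2 each). The Odc1 means were 5.81 ± 0.09 in mdx and 6.01 ± 0.88 in wild-type, and they differed by -0.20 ± 0.49. Its sign turned with the array kind, at 0.36 in the bright pair and -0.75 in the dim pair. It was -0.82 without wild-type 1, 0.42 without wild-type 2 and 0.10 with age as a covariate. No direction can be given for Odc1 here.

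The Sat1 means were 7.13 ± 0.27 in mdx and 6.36 ± 0.45 in wild-type, and they differed by 0.77 ± 0.76. Both mdx values lay above both wild-type values, as in 11.2% of all kept probe sets (22.0% without overlap in either direction). The bright pair differed by 1.28 and the dim pair by 0.26, and with age as a covariate the difference was -0.42 ± 0.56. The age slope of that fit came almost wholly from the hDMD mdx pair, which also differed in array brightness. It therefore cannot show what part age had between mdx and wild-type. The mdx mice were 15 and 13 weeks old and the wild-type mice 7. Srm differed by -0.66 ± 0.44, by -0.58 in the bright pair and -0.74 in the dim pair and -0.22 without wild-type 2, and Oaz1 by 0.02 ± 0.32 and 0.29 ± 0.39, the second being -0.05 without wild-type 1. In limma 0 of the 5 were called, as were 0% of all 7453, of which 130 had an unadjusted p under 0.05.

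The third comparison asked what the human gene changed on the mdx background (hDMD mdx against mdx, n = 2 each). Odc1 was at 7.14 ± 0.44 in hDMD mdx and 5.81 ± 0.09 in mdx, a difference of 1.33 ± 0.49 or 2.51-fold. Both hDMD mdx values lay above both mdx values, as in 13.9% of all kept probe sets, and the bright pair differed by 1.08 and the dim pair by 1.57. It was between 1.02 and 1.64 with each mouse left out in turn.

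Sat1 was at 5.24 ± 1.75 in hDMD mdx and 7.13 ± 0.27 in mdx, a difference of -1.89 ± 0.76. Both hDMD mdx values lay below both mdx values, as in 13.1% of all kept probe sets (27.0% without overlap in either direction). The size rested on hDMD mdx 2, the mouse at the floor, since the difference was -0.65 without it and -3.13 without hDMD mdx 1. The bright pair differed by -0.85 and the dim pair by -2.94. The first Oaz1 probe set differed by 0.20 ± 0.32 without overlap, and the second by -0.03 ± 0.39. Srm differed by 0.09 ± 0.44, by 0.42 in the bright pair and -0.24 in the dim pair, and by -0.28 without mdx 2 and 0.46 without mdx 1, so it has no settled sign. In limma 0 of the 5 were called, as were 0% of all 7453, of which 215 had an unadjusted p under 0.05.

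The fourth comparison widened this to both deficient backgrounds, with utrophin genotype as a term: hDMD mdx and hDMD mdx utrn-/- (n = 3) against mdx and mdx utrn-/- (n = 3). It shares its mdx and hDMD mdx arrays with the third comparison, so the 2 are not independent. Its only bright arrays are hDMD mdx 1 and mdx 2, so each value within bright arrays repeats that of the third comparison. Odc1 was at 7.19 ± 0.32 with the human gene and 5.75 ± 0.13 without it, a difference of 1.44 ± 0.29 or 2.72-fold. Of all kept probe sets 0.979% had a larger difference in size. The bright arrays gave 1.08 and the dim ones 1.62, a fit with age as a covariate 1.58 ± 0.34, and the range was 1.30 to 1.65 with each mouse left out in turn.

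Sat1 was at 5.08 ± 1.27 with the human gene and 7.07 ± 0.22 without it, a difference of -1.99 ± 0.59. The bright arrays gave -0.85 and the dim ones -2.56, and without hDMD mdx 2 it was -1.30, or -0.74 without normalisation between arrays. The first Oaz1 probe set differed by 0.30 ± 0.26 and did not overlap. Being higher without overlap held for 5.23% of all kept probe sets, and being lower without overlap for 5.30% (10.5% in either direction). The second Oaz1 probe set differed by 0.09 ± 0.29. Srm differed by -0.33 ± 0.37, by 0.42 within the bright arrays and -0.70 within the dim ones, and by 0.09 without mdx utrn-/-. In limma 0 of the 5 were called, as were 0% of all 7453, of which 409 had an unadjusted p under 0.05.

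**Figure D3:**
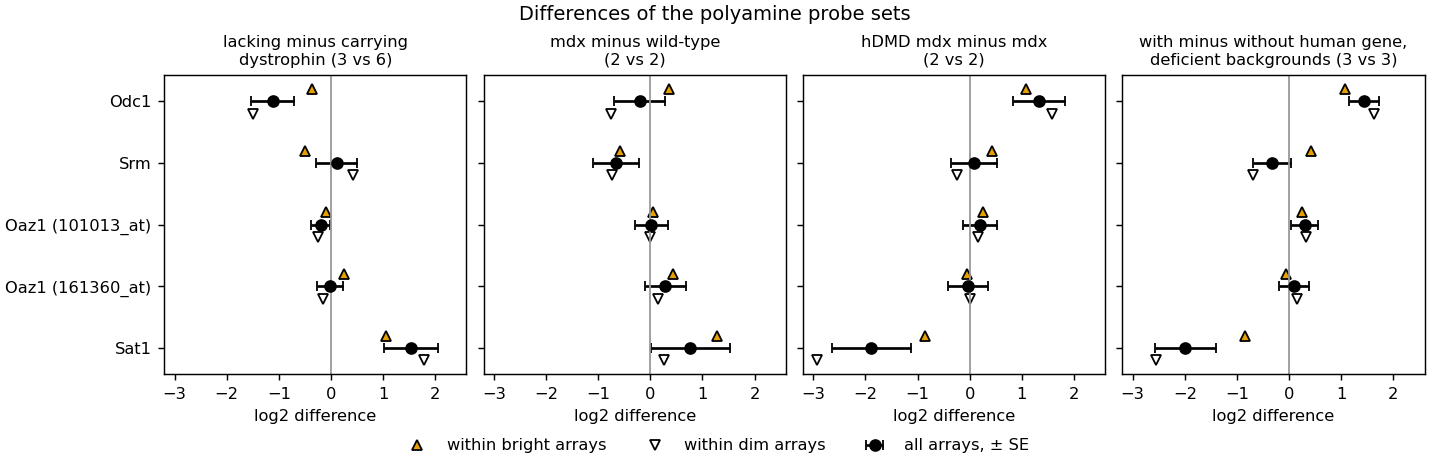
Log2 differences of the 5 polyamine probe sets in the 4 comparisons, named above each panel. Black points are fitted differences with SE, and triangles are mean differences within the bright (filled) and the dim (open) arrays. Odc1 is above 0 and Sat1 below 0 in both comparisons of the human gene in both kinds of array. The filled triangles of those comparisons show the same single pair, hDMD mdx 1 and mdx 2. In mdx against wild-type the Odc1 triangles lie on opposite sides of 0.

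The human gene was also carried by 1 mouse with intact mouse dystrophin, and 1 pair lacked utrophin, so these values have no replicate check. Odc1 was 1.62 higher in hDMD than the wild-type mean, and 1.67 higher in hDMD mdx utrn-/- than in mdx utrn-/-. For Sat1 the differences were -1.18 in the first pairing and -2.17 in the second. The hDMD array was dim, while the wild-type mean includes the bright array of the female wild-type 1. In the dim arrays hDMD and wild-type 2 stood at 7.63 and 6.63 for Odc1, and at 5.18 and 6.68 for Sat1. The interaction of the human gene with utrophin genotype was 0.35 ± 0.84 for Odc1 and -0.28 ± 1.32 for Sat1 (SE), and that with the mdx mutation was -0.30 ± 0.77 and -0.71 ± 1.20. These errors are wide against the differences themselves. Loss of utrophin went with an Odc1 difference of -0.19 in mdx utrn-/- against mdx and 0.16 in hDMD mdx utrn-/- against hDMD mdx. Both utrn-/- arrays were dim. Against the dim array alone the second sign turned, with 7.30 in hDMD mdx utrn-/- and 7.45 in hDMD mdx 2. Srm was 1.61 higher in mdx utrn-/- than the mdx mean, and 0.35 higher in hDMD mdx utrn-/- than the hDMD mdx mean. The dim arrays had Srm at 6.69 in mdx utrn-/- and 5.45 in mdx 1. They had it at 5.52 in hDMD mdx utrn-/- and 5.21 in hDMD mdx 2.

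Some markers of other cells moved with these groups, and others did not. Over all kept probe sets, 48.2% had higher means without dystrophin, and 51.6% with the human gene on deficient backgrounds. In mdx against wild-type, 11 of 12 macrophage, 8 of 8 regeneration and 3 of 5 fibroblast markers had higher means, beside 50.1%. None of the neutrophil or adipocyte markers did there. Of 12 macrophage markers, 11 had higher means without dystrophin, and their summed intensity was 744 to 1350 without and 191 to 952 with it. Of 8 markers of regenerating muscle, all had higher means without dystrophin, with sums of 1150 to 2500 without and 197 to 541 with it. On the deficient backgrounds 10 of 12 macrophage and 8 of 8 regeneration markers had lower means with the human gene, with sums of 194 to 246 and 230 to 276 with it, against 744 to 1350 and 1150 to 2500 without. All 5 fibroblast markers had higher means without dystrophin, with sums of 2200 to 2530 without and 1490 to 3340 with it, and all 5 had lower means with the human gene on deficient backgrounds, with sums of 1490 to 1850 with it. The sum of 4 neutrophil markers was 1380 in mdx utrn-/- and 3.22 to 73.8 in the other mice. Of 4 adipocyte markers, 2 had higher means without dystrophin, with sums of 947 to 1600 without and 691 to 4150 with it. Arg1, a macrophage marker that makes ornithine, was at the floor in both wild-type arrays, and no other marker of these lists was at the floor in every array of one of these groups. The 5 arrays with the lowest macrophage sums, 191 to 246, had Sat1 levels from 4 to 6.48 and Odc1 levels from 5.39 to 7.63. The other arrays, with sums of 744 to 1350, had Sat1 levels from 6.68 to 7.33 and Odc1 levels from 5.62 to 6.63. Split by macrophage sum in this way, the Sat1 levels did not overlap. The part of these cells in the differences of Odc1 and Sat1 was not tested beyond these values.

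The rest of the pathway was described with a list of 39 genes of ornithine and S-adenosylmethionine supply, polyamine synthesis, antizyme regulation, breakdown and transport, hypusine formation and Odc1 transcription. Of these, 26 had a probe set with 1 gene symbol and 17 passed the filter. In limma 0 of the 17 were called in each of the 4 comparisons. Without against with dystrophin, 6 of 17 had a higher mean with a median of -0.06, beside 48.2% and -0.01 over all kept probe sets. For mdx against wild-type these were 8 of 17 and -0.09, beside 50.1% and 0. For hDMD mdx against mdx they were 11 of 17 and 0.23, beside 52.7% and 0.02. With against without the human gene on deficient backgrounds they were 11 of 17 and 0.03, beside 51.6% and 0.02. The number at an unadjusted p under 0.05 was 2, 0, 1 and 2 in the same order.

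Among regulators, Azin1, the antizyme inhibitor that shields Odc1 from antizyme, was at 7.21 ± 0.32 without dystrophin and 6.52 ± 0.51 with it, a difference of 0.69 ± 0.31 (limma adjusted p 0.875). With the human gene on deficient backgrounds it was at 6.54 ± 0.68, against 7.21 ± 0.32 without, a difference of -0.67 ± 0.39 (limma adjusted p 0.979). Its sign was thus opposite to that of Odc1 in both comparisons, but the second uses a part of the arrays of the first. In hDMD mdx against mdx alone Azin1 differed by only -0.15 ± 0.42. The larger gap was in the unreplicated pair without utrophin, at 5.81 in hDMD mdx utrn-/- and 7.53 in mdx utrn-/-. Aoc1, an amine oxidase that degrades putrescine, was at 4.48 ± 0.15 without dystrophin and 5.33 ± 0.44 with it (-0.85 ± 0.28, limma adjusted p 0.667). The bright arrays gave -0.42 and the dim ones -1.07. Its levels without dystrophin, 4.38 to 4.65, were close to the floor. Adi1, an enzyme of the salvage of methylthioadenosine, a by-product of polyamine synthesis, was at 6.10 ± 0.32 with the human gene and 5.28 ± 0.46 without it on deficient backgrounds (0.82 ± 0.27, limma adjusted p 0.711). In hDMD, which also carries the human gene, Adi1 was at 4.87, and in wild-type 1, which does not, at 6. Dohh, which completes the spermidine-derived hypusine of eIF5A, was at 6.11 ± 0.31 in hDMD mdx and 5.07 ± 0.45 in mdx (1.05 ± 0.40, limma adjusted p 1). The mdx mean stood against 5.91 ± 0.35 in wild-type (-0.84 ± 0.40, limma adjusted p 1). In mdx utrn-/-, which also lacks dystrophin, Dohh was at 6.31, so its low level in mdx was not shared by all mice without dystrophin. Oat, which turns ornithine toward glutamate and proline, averaged 7.46 ± 0.08 in mdx and 8.08 ± 0.14 in wild-type (-0.61 ± 0.32, limma adjusted p 1). In mdx utrn-/- Oat was at 8.05, close to the wild-type mean.

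Spermine synthase (Sms) is read by 2 probe sets that are also annotated to its pseudogene Sms-ps. The one named 98136_at was at 7.19 in hDMD mdx utrn-/-, 7.54 and 7.58 in hDMD mdx 1 and 2, and 7.80 in hDMD. It was at 6.49 in mdx utrn-/-, 6.70 in both mdx mice, and 7.28 and 6.98 in wild-type 1 and 2. All mice without dystrophin lay below all mice with it. The difference without against with dystrophin was -0.77 ± 0.23 (limma adjusted p 0.562), with -0.72 in bright and -0.79 in dim arrays, and that with against without the human gene on deficient backgrounds 0.81 ± 0.26 (limma adjusted p 0.691). Being lower without overlap in the first held for 1.42% of all kept probe sets. The other Sms probe set (160630_at) differed by -0.67 ± 0.40 and 0.72 ± 0.40 (limma adjusted p 0.999 and 0.979).

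**Figure D4:**
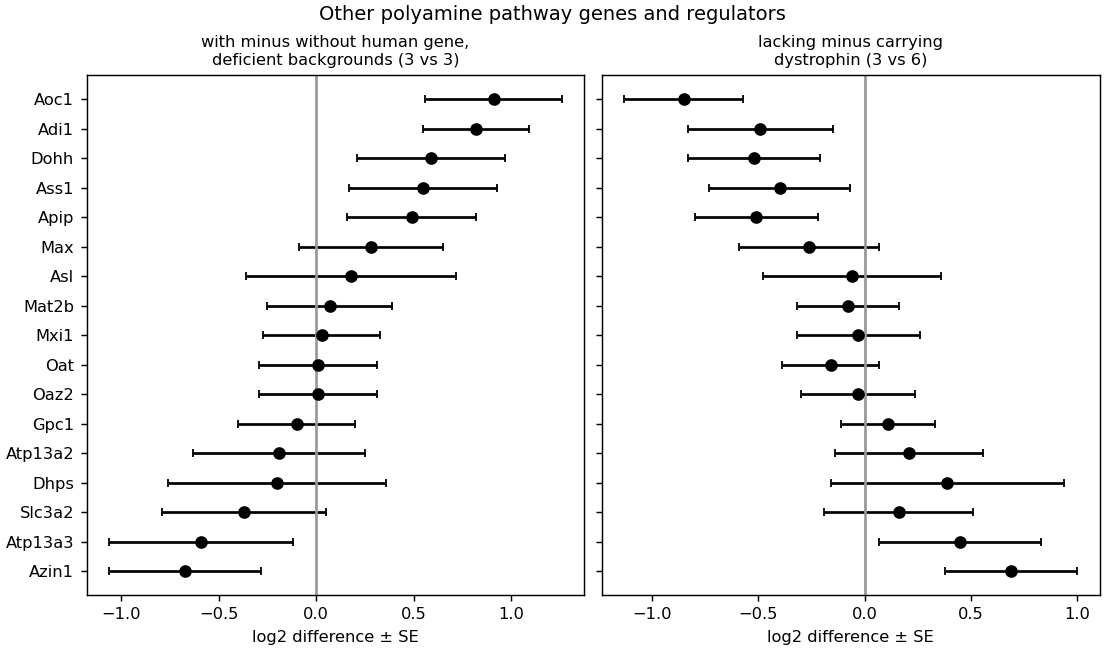
Log2 differences with SE of the 17 other pathway genes that passed the filter, with against without the human gene on deficient backgrounds (left) and without against with dystrophin (right). Aoc1 is at 0.91 on the left and -0.85 on the right, and Azin1 at -0.67 and 0.69.

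The 3 genes most like each polyamine gene over the 9 arrays were found by Pearson correlation among 5663 genes, as a description with no test, since the arrays share genotypes and brightness. For Odc1 they were Prkcq, a protein kinase C of skeletal muscle and T cells (r = 0.940), Cd24a, a small glycosylated surface protein (0.935), and Ddx1, an RNA helicase (0.934). Ddx1 was also the nearest to the first Oaz1 probe set (0.969), before Saysd1 (0.966) and Tle5 (0.941). For Sat1 they were AU020206 (0.985), Prelid1, which carries lipids in mitochondria (0.963), and Ankfy1, an endosomal protein (0.954). For Srm they were Sbp, the spermine binding protein of the mouse prostate (0.932), Tmem50b (0.916) and Npr3, a natriuretic peptide receptor (0.916), with Sbp between 4.30 and 5.31. Sbp, AU020206 (4.14 to 5.43), Prelid1 (4.11 to 5.35), Ankfy1 (4 to 6.02) and Npr3 (4.12 to 5.65) were close to the floor on some arrays. With the means of bright and dim arrays removed, these correlations were 0.862 to 0.982.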

How the data were processed

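RNA of 9 gastrocnemius muscles was measured on 9 Affymetrix U74Av2 arrays. Per the labels' protocols, RNA was extracted with Trizol and RNeasy columns and labelled as biotin cRNA. The authors deposited 1 linear intensity per probe set and array, and 19.4% to 29.9% of these per array were at or below 0. Array medians ran from 1.47 to 45.6, and how the intensities were summarised and scaled is not stated in the labels used here. The number of arrays limits the precision.

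Of 12488 probe sets, 66 controls were left out. The others were quantile normalised, negative values were set to 0, and log2 was taken after a pseudocount of 16. Probe sets with a mean above the 40th percentile (7453) were tested. Symbols came from the platform annotation: 10833 probe sets had 1 symbol, 396 several and 1193 none, and 10817 of the single symbols were matched to a current gene through Entrez identifiers. Different probe sets of a polyamine gene were kept apart, and other genes were represented by the probe set with the highest mean.

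limma 3.58.1 in R 4.3.3 fitted 1 mean per genotype over all arrays (residual degrees of freedom 3), 2 dystrophin classes (7), or the human gene with utrophin genotype as a term in 6 arrays (3), with two-sided tests and Benjamini-Hochberg adjustment at 0.05. Genotypes with 1 mouse were assumed to vary like the others. Bright and dim arrays were split at the widest gap of the median of 9 spike-in probe sets. The fits were tested on simulated data. The polyamine genes, gene lists, tests and alternatives were chosen with earlier results of these data known. Named genes were all polyamine probe sets, list genes among the up to 4 with the smallest p in each comparison, and the 3 most correlated genes. The Sms probe sets and the grouping into carriers and non-carriers of the human gene were chosen after their values were seen.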

Additional observations from a re-analysis of the deposited data

How the results depend on the processing

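The labels name no pairs of mice, such as littermates, so none were paired by origin. Array brightness was fitted as a block among the alternatives. For mice without against with dystrophin, 9 probe sets passed in limma. The count was 0 without normalisation between arrays (12 at an unadjusted p under 0.05), 2 without the filter, 1 with a pseudocount of 1 and 2 with the human gene as a covariate, and 2 to 18 with each mouse left out in turn, lowest without hDMD, hDMD mdx 2 or mdx utrn-/- and highest without wild-type 1. With the human gene on deficient backgrounds, 0 passed, against 1 with a trend in eBayes and 4 with array brightness as a block. The other 2 comparisons gave 0 in limma under each alternative. The causes of these shifts were not tested, beyond fewer samples or more probe sets tested. None of the 5 polyamine probe sets was called in limma under any of them.

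For Odc1 the difference with the human gene on deficient backgrounds lay between 0.94 (pseudocount of 64) and 1.76 (pseudocount of 1) under 15 alternatives, and that without against with dystrophin between -1.50 and -0.26 under 19. For Sat1 the first lay between -3.62 (pseudocount of 1) and -0.74 (no normalisation), and the second between 0.71 (human gene as a covariate) and 2.50 (pseudocount of 1). Srm and the second Oaz1 probe set each changed sign under at least 1 alternative in 3 and 4 of the 4 comparisons. No detection calls were among the values used, so signals near the floor cannot be told from background.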
